A study of Mus musculus with 32 samples.

Results

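The midbrains of sham-operated mice lacking Cckbr were compared with the midbrains of sham-operated control mice, using 8 of the 32 expression arrays of the study. The 8 arrays were chosen by their titles: 4 arrays of KO sham midbrain and 4 of control sham midbrain, each from a separate animal according to the design. KO stands here for the mutant, Cckbr-deficient mice, and a sham operation is surgery without the nerve ligatures of chronic constriction injury (CCI), a model of neuropathic pain in which the sciatic nerve is loosely tied. The study holds the same 2 genotypes after CCI and the medulla of the same animals, which makes 8 groups of 4 arrays. Those other arrays are used below where they repeat the genotype comparison in other animals (CCI midbrain) or in another region of the same animals (sham medulla). Strain, age, sex, the time after the operation, the origin of the control mice and the form of the Cckbr mutation are not stated in the labels. All 22626 probe sets other than the array's own controls were tested.

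Cckbr encodes the cholecystokinin B receptor, a G protein-coupled receptor that binds the sulphated octapeptide of cholecystokinin, its shorter fragments and gastrin. It is the predominant cholecystokinin receptor of the brain. In the midbrain, cholecystokinin is known as a peptide of the periaqueductal grey, where it opposes opioid analgesia, and as a cotransmitter of many dopamine neurons.

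Every level below is a background-subtracted array intensity in linear units. Every difference is KO minus control on the scale of log2(intensity + 16), after quantile normalization, with its standard error (SE) and the adjusted p of limma over all 22626 probe sets. That scale understates the change of dim genes. The genotypes are called separated where all 4 KO arrays lay above or below all 4 control arrays in normalized values. The median SE of a difference was 0.14 with 4 arrays per group, and the number of arrays limits the precision. Array medians lay between 91.0 and 99.5 units, and 1.87% to 3.17% of the values were at or below 0. The midbrain dissection was checked on Slc6a3, the dopamine transporter, which averaged 587 ± 76.8 units in KO sham midbrain and 598 ± 122 in control sham midbrain (SD, n = 4), against 2.22 in KO sham medulla and -0.11 in control sham medulla.

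A pair of KO arrays stood apart. On the first principal component of the 16 midbrain arrays, which held 17.8% of the variance, KO sham midbrain 2 scored -36.0 and KO sham midbrain 4 scored -26.4, and the other 14 arrays lay between -16.2 and 21.8. The log2 ratio of the 3′ to the 5′ control probe set of Actb was 1.60 on KO sham midbrain 2 and 0.36 to 0.78 on the other 31 arrays of the study. The corresponding Gapdh ratio was 0.35 on that array and -0.23 to -0.01 on the others. KO sham midbrain 4 had an Actb ratio of 0.63 and the highest share of values at or below 0 among the 8 arrays. Arrays within the KO group correlated at 0.966 to 0.984 and arrays within the control group at 0.980 to 0.986, as a description over probe sets, which are not replicates.

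**Figure D1:**
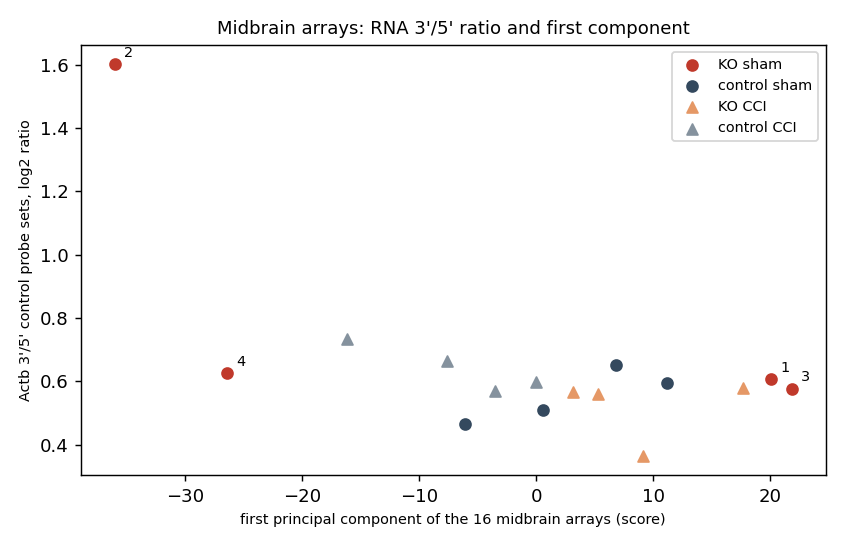
First principal component score (horizontal axis, no unit) and log2 ratio of the 3′ to the 5′ Actb control probe set (vertical axis) for each of the 16 midbrain arrays; numbers mark the KO sham arrays. KO sham midbrain 2 lies alone at a ratio of 1.60 and a score of -36.0, and KO sham midbrain 4 lies at -26.4 with a ratio of 0.63.

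The comparison of KO with control sham midbrain asks what else differs in uninjured midbrain when the receptor is missing. Of 22626 probe sets 3 passed an adjusted p of 0.05 (0.0133%), 1 higher and 2 lower in KO mice. They were Iqgap1, Cckbr and Myo7a, and all 3 genes lie on chromosome 7. At an unadjusted p of 0.05, 1917 probe sets passed (8.47%), 796 higher (3.52%) and 1121 lower (4.95%). The median difference over all probe sets was 0.00.

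The targeted gene was at background in KO mice. On the brighter of its 2 probe sets Cckbr read 12.9, -1.49, 12 and 9.17 units in KO sham midbrain, against 153, 166, 122 and 168 units in control sham midbrain. All 4 KO arrays were near 0 and the groups lay far apart. Cckbr fell by 2.81 on the log2 scale (SE 0.15, adjusted p = 3.87e-07), and all 8 fits with one array removed kept the call, with adjusted p between 9.89e-09 and 5.87e-06. No fold is given because the KO level was at background. The dimmer probe set read 11.6, -3.25, 11.7 and 13.5 units in KO sham midbrain, against 42.5, 26.9, 31 and 25.6 units in control sham midbrain. Its groups were separated too, by -0.93 (SE 0.23), and this set did not pass (adjusted p = 0.37). The labels do not say where either set of probes lies relative to the mutation.

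The other genes of the cholecystokinin system did not pass. Cck, the peptide precursor, read 640, 761, 725 and 856 units in KO sham midbrain, against 652, 658, 721 and 754 units in control sham midbrain. The groups overlapped, with a difference of 0.08 (95% interval -0.18 to 0.34, adjusted p = 0.87). Cckar, the receptor that predominates in the gut, read 30 ± 9.54 units in KO sham midbrain and 28.2 ± 5.82 in control sham midbrain (SD, n = 4), a difference of 0.04 (95% interval -0.30 to 0.38). Gast, which encodes gastrin, was near background in both groups, at 16.3 ± 4.36 and 6.49 ± 12.3 units in KO and control sham midbrain. Whether fewer cells of a type or less RNA per cell lies behind any level in whole midbrain cannot be told apart.

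**Figure D2:**
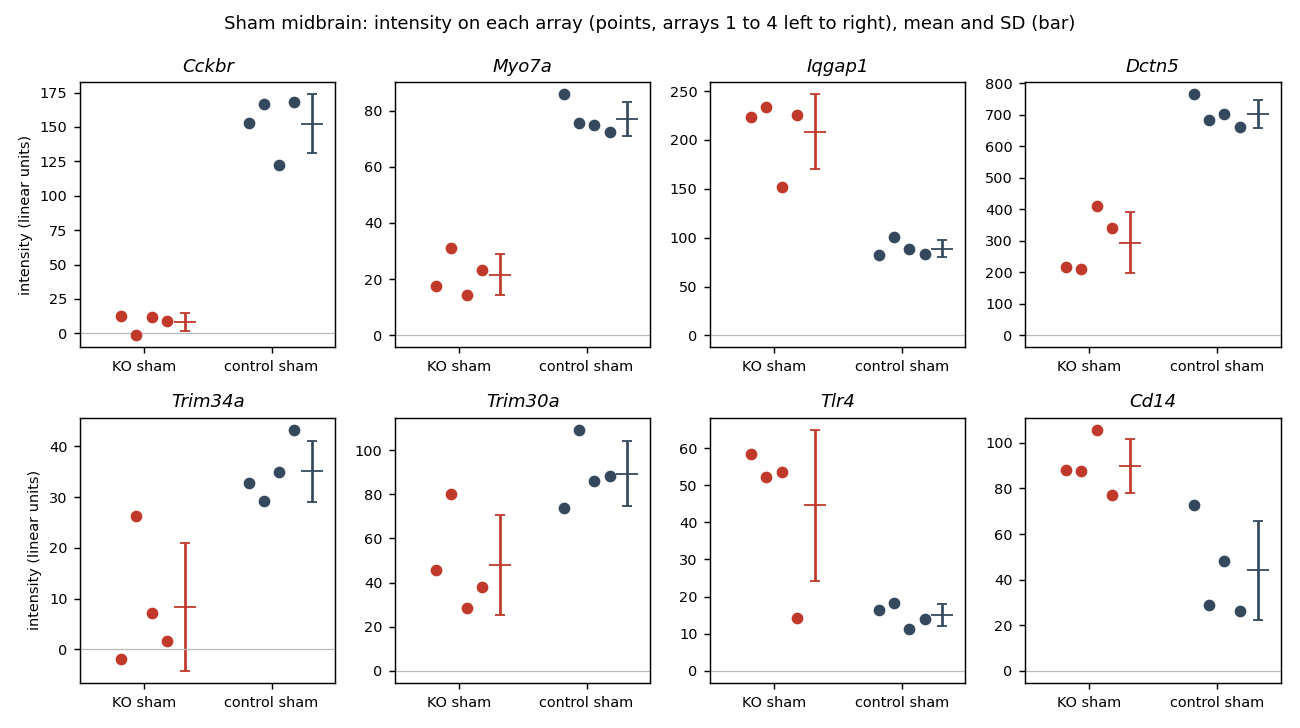
Intensity in linear units (vertical axes) of 8 genes on the 4 KO sham midbrain arrays (red) and the 4 control sham midbrain arrays (blue); points are arrays 1 to 4 from left to right, and the bars show mean and SD. The genotypes lie far apart for Cckbr, Myo7a, Iqgap1 and Dctn5, while KO array 2 lies nearest the controls for Trim34a and KO array 4 lies among the controls for Tlr4.

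Myo7a, an unconventional myosin known from sensory hair cells and photoreceptors, fell in KO mice. It read 17.6, 31.1, 14.5 and 23.1 units in KO sham midbrain, against 85.8, 75.4, 74.8 and 72.2 units in control sham midbrain. Every KO array was far below every control. The difference was -1.32 (SE 0.18, adjusted p = 0.0297). It kept its size in the 8 fits that left out one array, between -1.45 and -1.20, and passed in 1 of them, without KO sham midbrain 2. In the other fits, each lacking KO sham midbrain 1, 3 or 4 or one of the 4 control arrays, the adjusted p lay at up to 0.139.

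Iqgap1, a scaffold that links the actin cytoskeleton to small GTPases, rose on 1 of its 5 probe sets. That probe set read 224, 233, 151 and 225 units in KO sham midbrain, against 81.9, 100.99, 88.3 and 82.9 units in control sham midbrain, a ratio of means of 2.35. The lowest KO array was well above the highest control. The difference was 1.10 (SE 0.16, adjusted p = 0.0347). A second probe set of Iqgap1 was also separated, at 158 ± 10.5 units in KO and 99.0 ± 10.8 in control sham midbrain (SD, n = 4), with a difference of 0.61 that did not pass (adjusted p = 0.234). The other 3 probe sets differed by 0.26, 0.10 and 0.02, the last 2 of them near background in both groups. The call on the first probe set held in 1 of the 8 fits that left out one array, without KO sham midbrain 3. Without KO sham midbrain 1, 2 or 4 or any 1 control array the adjusted p was up to 0.156, with differences between 1.02 and 1.24 over the 8 fits.

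Each array has a code in its description, and whether it stands for a batch is not said. Control 1 alone carried a code of its own, so values within a code leave it out. Of the 2 codes that both genotypes shared, the lower held KO 1 and 2 against control 2 and the higher held KO 3 and 4 against control 3 and 4. Within the lower shared code the differences were -3.09 for Cckbr, -1.17 for Myo7a and 1.12 for Iqgap1. With a single control array there, not even Cckbr passed, and these are given as values only. Within the higher shared code the differences were -2.58 for Cckbr (adjusted p = 0.0533), -1.37 for Myo7a (0.744) and 0.97 for Iqgap1 (0.855), and Cckbr again did not pass. With the code as a block Cckbr passed (adjusted p = 3.47e-05) and Myo7a and Iqgap1 did not (0.243 each). The title number as a replicate block gave 0.112 for both of these genes.

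Below the threshold, the most clearly separated genes with a group mean of at least 50 units were a mixed set, and none of them passed. The 10 genes that were higher in KO mice with the smallest p had adjusted p from 0.178 to 0.37 and differences of 0.30 to 1.03. They included Myo15, a myosin of hair-cell stereocilia, at 102, 96.1, 99.3 and 106 units in KO sham midbrain, against 55.3, 70.8, 62.3 and 70.0 units in control sham midbrain. The difference was 0.55 (SE 0.09, adjusted p = 0.178). C8g, the gamma chain of complement component 8, differed by 0.50 (adjusted p = 0.234), and Smarcc1, a subunit of the BAF chromatin remodelling complex, by 0.55 (0.37). Samhd1, a dNTP-hydrolysing enzyme of antiviral defence, differed by 0.70 on 1 of its 4 probe sets (0.287), and the other 3 differed by 0.05 to 0.33. The rest of the 10 were Styxl1, Pudp, Thrsp, Axin1, Ylpm1 and the second Iqgap1 probe set. Of the 10, 2 lay on chromosome 7 (Iqgap1 and Thrsp), which holds 958 of the 12393 measured genes. In the CCI midbrain of other animals 8 of these 10 had a positive difference, with a median of 0.17 against 0.52 in sham midbrain, where they were selected.

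Among the 10 genes that were lower in KO mice with the smallest p, Dctn5, a subunit of the dynactin complex that couples dynein to its cargo, had the largest difference. It read 218, 210, 410 and 340 units in KO sham midbrain, against 765, 683, 701 and 663 units in control sham midbrain. The KO level was 0.419 of the control level and the groups were far apart, and KO arrays 1 and 2 were below KO arrays 3 and 4. The difference was -1.27 (SE 0.23, adjusted p = 0.224), and it passed with the 32 arrays of the study in 1 fit (0.0282). Pecam1, an endothelial adhesion molecule, read 39.1, 32.7, 27.0 and 20.5 units in KO sham midbrain, against 48.9, 49.6, 53.7 and 59.6 units in control sham midbrain, a difference of -0.60 (adjusted p = 0.234). Amy1, an amylase, differed by -0.39 (0.234), Pold3, a DNA polymerase delta subunit, by -0.78 on the dimmer of its 2 probe sets (0.318; -0.10 on the brighter) and Ppme1, which demethylates protein phosphatase 2A, by -0.45 (0.318). Smco4, Nr2c1, Ccdc117, Pla2g15 and Prpf4b completed the 10, with differences of -0.35 to -0.57. Apart from Smco4, these genes have other probe sets, most of them brighter and most with smaller differences. The second probe set differed by -0.21 for Nr2c1, 0.03 for Ccdc117 and -0.05 for Pla2g15, and the brightest of the 6 Prpf4b probe sets differed by -0.02. Of the 10, 3 lay on chromosome 7 (Dctn5, Pold3 and Ppme1). In CCI midbrain 7 of the 10 had a negative difference, with a median of -0.06 against -0.50 in sham midbrain.

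Separation of the genotypes was counted over all probe sets and then followed into the CCI midbrain, whose animals and controls are different ones. The genotypes were separated on 781 probe sets in sham midbrain (3.45%), 1158 in CCI midbrain (5.12%) and 374 in sham medulla (1.65%). In sham midbrain 294 probe sets had all KO arrays above the controls (1.3%) and 487 had all KO arrays below them (2.15%). Of these, 39 were separated in the same direction in CCI midbrain (0.172% of all probe sets), 12 higher (0.053%) and 27 lower (0.119%). On chromosome 7, which carries Cckbr, lay 20 of the 39, among them both probe sets of Cckbr itself. Chromosome 7 holds 958 of the 12393 measured genes. Without KO sham midbrain 2 the count of 39 became 77, with 25 on chromosome 7. Without KO sham midbrain 4 it was 89, with 28 on chromosome 7, and without both it was 345, with 45 on chromosome 7. Fewer KO arrays make separation easier. With no further normalization it was 31, with 13 on chromosome 7. Of the 39, 16 were also separated the same way in sham medulla, which comes from the same sham animals. On chromosome 7 were 13 of these 16, again with both Cckbr probe sets among them.

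Distance along chromosome 7 was measured in genes on the array, in the gene order of the GRCm38.p6 annotation. Of the 654 probe sets within 200 genes of Cckbr, 13 were separated the same way in both sham and CCI midbrain (1.99%). The share was 0.64% (5 of 781) farther away on chromosome 7 and 0.0899% (17 of 18914) on other chromosomes. In sham midbrain alone the shares were closer, at 4.28%, 3.59% and 3.48%. Among the probe sets separated in sham midbrain, 82.1% within 200 genes, 82.1% farther along chromosome 7 and 54.2% on other chromosomes had a CCI difference of the same sign. Within 100 genes the sham shares were 5.26% for genes 1 to 25, 5.81% for 26 to 50 and 8.64% for 51 to 100 away. These shares are descriptions without a test, and neighbouring probe sets are not independent. The genotypes' strain background around the targeted gene is not given, and its part in these shares was not tested.

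**Figure D3:**
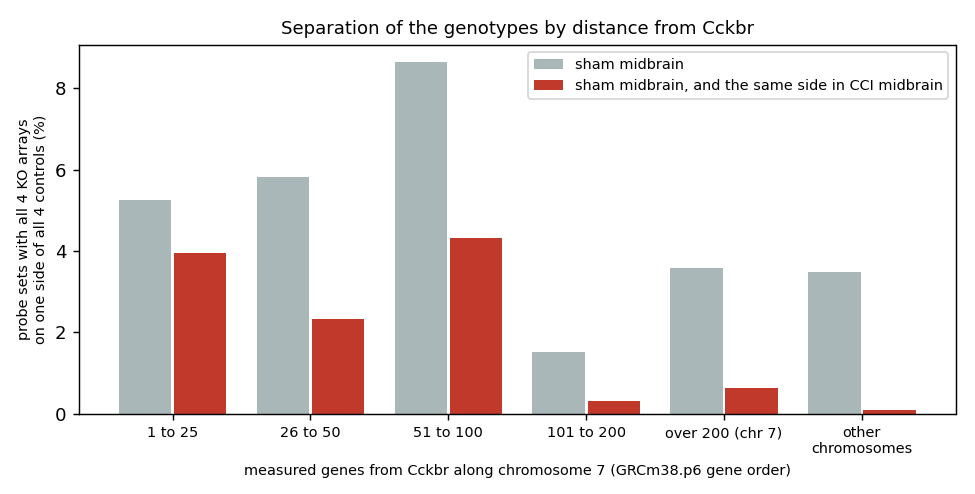
Share of probe sets (percent, vertical axis) whose 4 KO arrays all lay on one side of the 4 control arrays in sham midbrain (grey) and, of all probe sets in the bin, the share that also did so on the same side in CCI midbrain (red), by distance from Cckbr in measured genes. The red bars stand at 3.95%, 2.33% and 4.32% in the bins up to 100 genes away and at 0.0899% on other chromosomes.

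The genes behind these counts lay on both sides of Cckbr. Besides Cckbr and Myo7a (70 measured genes away on one side), those lower in KO mice in sham midbrain, CCI midbrain and sham medulla were Trim34a (8 genes away on that side), Pgap2 (23), Ppme1 (50) and Ndufc2 (76), and, on the other side, Spon1 (51), Coq7 (62) and Dctn5 (93). Iqgap1 (122 genes away, on the side of Myo7a) was higher in all 3. These genes were chosen after their values were seen. Pgap2, which remodels GPI anchors, read 57.3, 70.3, 43.9 and 62.9 units in KO sham midbrain, against 123, 96.7, 96.6 and 80.0 units in control sham midbrain, on the most different of its 3 probe sets. The difference was -0.63 (SE 0.15, adjusted p = 0.37), beside -0.75 in CCI midbrain and -0.85 in sham medulla, where it passed (adjusted p = 0.0093). Spon1, a secreted matrix protein of the floor plate, read 76.3, 72.7, 104 and 70.1 units in KO sham midbrain, against 113, 113, 147 and 103 units in control sham midbrain. That was a difference of -0.48 (adjusted p = 0.37) on 1 of 2 probe sets; the brighter probe set differed by -0.10.

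Coq7, an enzyme of ubiquinone synthesis, averaged 391.8 units in KO and 546 in control sham midbrain, with a difference of -0.47 (adjusted p = 0.401). Ndufc2, a subunit of respiratory complex I, differed by -0.27 and -0.14 on its 2 probe sets, the smallest differences of this group. Hdgfl3, 110 genes from Cckbr, read 539, 402, 418 and 469 units in KO sham midbrain, against 681, 781, 783 and 725 units in control sham midbrain, on 1 of its 3 probe sets. The groups were separated, with a difference of -0.70 (SE 0.17, adjusted p = 0.37), and the other 2 probe sets differed by 0.01 and 0.07. Folh1, glutamate carboxypeptidase II, 98 genes away, had overlapping groups and a difference of 0.39 (adjusted p = 0.571).

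**Figure D4:**
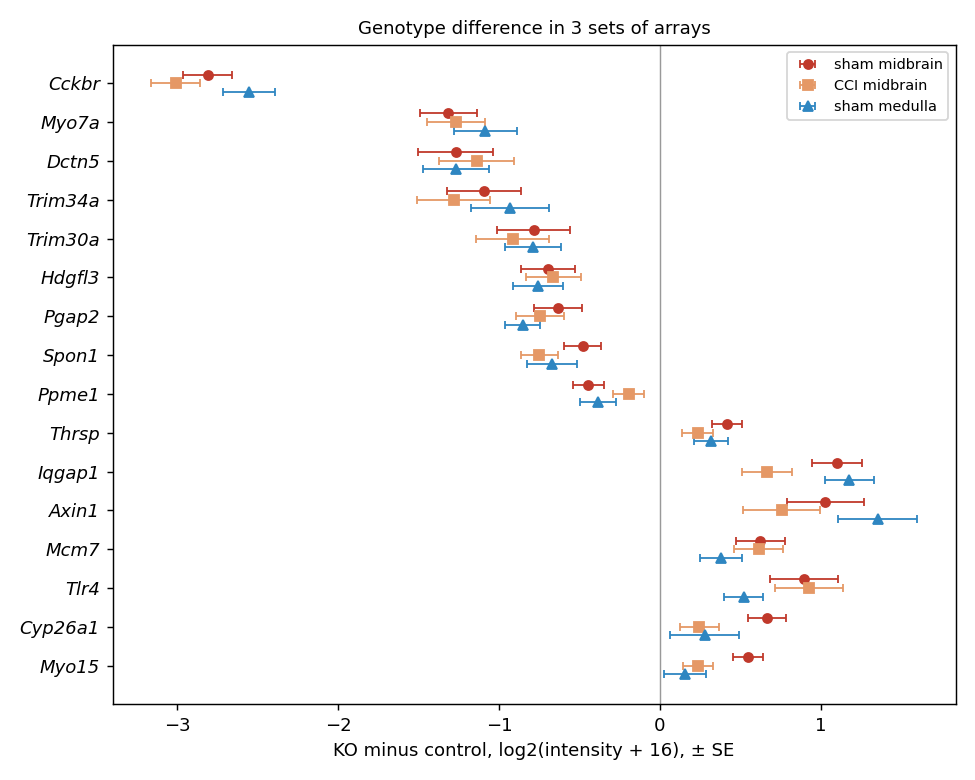
Difference KO minus control on the log2(intensity + 16) scale with its SE (horizontal axis) for 16 named genes in sham midbrain (circles), CCI midbrain (squares) and sham medulla (triangles), on the probe set with the smallest p in sham midbrain. Cckbr, Myo7a, Dctn5 and Trim34a lie between -3.01 and -0.93 and Iqgap1 between 0.67 and 1.18, while Myo15 and Cyp26a1 are nearer 0 outside sham midbrain.

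The nearest genes with a large difference belong to a cluster of Trim genes beside Cckbr, which encode tripartite-motif proteins of antiviral restriction and innate signalling. On 1 of its 2 probe sets Trim34a read -1.86, 26.3, 7.23 and 1.58 units in KO sham midbrain, against 32.8, 29.2, 35.1 and 43.3 units in control sham midbrain. KO sham midbrain 2 lay just under the lowest control and the other KO arrays near 0. The difference was -1.09 (SE 0.23, adjusted p = 0.303). It was -1.39 without KO sham midbrain 2 (adjusted p = 0.00204), -1.02 without KO sham midbrain 4 and -1.42 without both (0.0103). The second Trim34a probe set differed the other way, by 0.38 (adjusted p = 0.608). In CCI midbrain, where the KO arrays read between -0.21 and 7.38 units and the controls between 29.7 and 37.9, the first probe set differed by -1.28 (adjusted p = 0.254).

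Trim30a, known as a negative regulator of Toll-like receptor signalling, read 45.6, 80.0, 28.3 and 38.1 units in KO sham midbrain, against 73.7, 109, 86.1 and 88.5 units in control sham midbrain. KO sham midbrain 2 alone lay within the control range, and the difference was -0.79 (SE 0.23, adjusted p = 0.474), with -0.92 in CCI midbrain and -0.79 in sham medulla. Its second probe set differed by -0.05. Among the 19 measured genes of a list of Cckbr's neighbours, 0 passed, 5 were lower and 0 higher at an unadjusted p of 0.05, beside 3.24% lower and 3.66% higher over all genes with 1 probe set each, of which 0.0242% passed. The other 3 lower ones were Pgap2, Tpp1, a lysosomal peptidase (-0.28), and Cavin3, a caveolar coat protein (-0.29). Trim6, Trim21 and Trim30d, other members of the cluster, differed by 0.30, 0.12 and 0.06, and none passed. Trim12a, 7 genes from Cckbr, differed by -0.29 on the brighter of its 2 probe sets (adjusted p = 0.849). On the dimmer one, near background at 3.97 units in KO and 13.7 in control sham midbrain, it differed by -0.54 (0.549). These probe sets differed by 0.08 and -0.73 in CCI midbrain and by 0.14 and -0.39 in sham medulla, and neither passed. Paralogues of the Trim cluster are similar in sequence, and whether probes cross-hybridised was not tested.

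The promoters of Trim34a and Trim30a are shown because these 2 genes had the largest differences in the list of Cckbr's neighbours. Each window runs from 250 bases before to 50 after the start (RefSeq, GRCm38.p6), 5′ to 3′ along the gene's strand. Capitals mark a match to the core of interferon-stimulated response elements, written as GAAA, any pair of bases (NN) and GAAA, and searched on both strands.
Trim34a, chr7:104244207-104244506, plus strand: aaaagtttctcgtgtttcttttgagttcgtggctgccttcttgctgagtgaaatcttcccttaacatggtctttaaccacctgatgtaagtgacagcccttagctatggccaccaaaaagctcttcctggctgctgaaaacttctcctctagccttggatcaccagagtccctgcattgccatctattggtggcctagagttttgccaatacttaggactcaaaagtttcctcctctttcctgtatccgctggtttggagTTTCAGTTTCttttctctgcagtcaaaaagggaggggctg
Trim30a, chr7:104465144-104465443, minus strand: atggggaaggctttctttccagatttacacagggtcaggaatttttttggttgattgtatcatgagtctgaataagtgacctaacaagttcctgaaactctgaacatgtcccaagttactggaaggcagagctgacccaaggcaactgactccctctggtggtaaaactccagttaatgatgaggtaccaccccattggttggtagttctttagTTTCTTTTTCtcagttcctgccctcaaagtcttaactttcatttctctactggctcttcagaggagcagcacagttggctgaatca
Both windows hold the motif on the strand opposite to the gene, close to the start. It occurs in 1131 of 32851 mouse promoters of this length (3.44%) and in 1079 of 27025 genes (3.99%). The other Trim30a promoter, not shown, also held it. Of the 12 Trim genes of the list with a promoter entry, 7 held it. Of the 6 that were measured, 5 held it: Trim34a, Trim30a, Trim12a, Trim21 and Trim30d. The levels of Trim21 and Trim30d differed little between genotypes. A match is a description of these letters and not a measured site.

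Tlr4, the receptor for bacterial lipopolysaccharide, was higher in 3 of 4 KO arrays. On 1 of its 2 probe sets it read 58.4, 52.1, 53.5 and 14.3 units in KO sham midbrain, against 16.3, 18.3, 11.4 and 13.9 units in control sham midbrain. KO sham midbrain 4 lay among the controls and the other KO arrays far above them. The difference was 0.90 (SE 0.21, adjusted p = 0.37). It was 1.18 without KO sham midbrain 4 (adjusted p = 0.00221), 0.79 without KO sham midbrain 2 and 1.15 without both (0.0109). In CCI midbrain the KO arrays read between 43.7 and 47.7 units and the controls between 9.91 and 22.6, a difference of 0.93 (adjusted p = 0.665). The second Tlr4 probe set was near background in both genotypes and differed by -0.02.

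The coreceptor Cd14 read 88.2, 87.5, 106 and 77.2 units in KO sham midbrain, against 72.9, 28.9, 48.1 and 26.2 units in control sham midbrain. The groups were separated by a narrow gap, with a difference of 0.90 (SE 0.21, adjusted p = 0.37), and the differences in CCI midbrain and sham medulla were 0.42 and 0.04. Ly96, which encodes the Tlr4 partner MD-2, differed by -0.29 at levels under 25 units, and Myd88, the main adaptor of the pathway, by -0.04. Of the 27 measured genes of Toll-like receptor and innate signalling 0 passed, 5 were higher (Cd14, Tlr4, Il1b, Irf3, Rela) and 3 lower (Ly96, Map3k7, Tab1) at an unadjusted p of 0.05, beside 3.66% higher and 3.24% lower over all genes. The median difference of the list was 0.11, beside 0.01 over the 12393 genes with 1 probe set each, and it was 0.13 without KO sham midbrain 2, without KO sham midbrain 4 and without both. The list had a median of 0.01 in CCI midbrain and 0.03 in sham medulla. Of 22 microglia and macrophage genes 1 was higher at that level (Cd14, which both lists hold) and 0 lower, with a median of -0.05 and a summed level of 4535 to 5291 units in KO and 4401 to 5631 in control sham midbrain.

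Interferon response and antigen presentation genes had a median difference of 0.14, with 21 of 26 positive, beside 52.9% positive over all genes. Of the 26, 2 were higher (the interferon-inducible GTPases Iigp1, 0.36, and Igtp, 0.24) and 0 lower at an unadjusted p of 0.05, beside 3.66% higher and 3.24% lower over all genes, and 0 passed. The list's median was 0.06 without KO sham midbrain 2, 0.12 without KO sham midbrain 4 and 0.02 in CCI midbrain. Rsad2, the antiviral radical SAM enzyme viperin, read 125, 50.1, 107 and 27.7 units in KO sham midbrain, against 39.9, 34.1, 36.9 and 52.7 units in control sham midbrain, on 1 of 3 probe sets. KO sham midbrain 1 and 3 were high, KO sham midbrain 2 lay within the control range and KO sham midbrain 4 below it. The difference was 0.61 (adjusted p = 0.582), and 1.21 without KO sham midbrain 2 and 4 (0.0342).

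Of the listed dopamine, serotonin, noradrenaline and opioid genes 0 passed. Th, the rate-limiting enzyme of dopamine synthesis, read 348, 324, 369 and 302 units in KO sham midbrain, against 399, 313, 430 and 352 units in control sham midbrain. The groups overlapped, with a difference of -0.14 (95% interval -0.35 to 0.07). Slc6a3 differed by -0.02 (95% interval -0.32 to 0.27). At an unadjusted p of 0.05, 1 of 18 dopamine neuron genes was higher, Lmx1b, a patterning factor of dopamine and serotonin neurons (0.36). Aldh1a1, which makes retinoic acid, was the 1 lower gene (-0.19). Over all genes with 1 probe set each, 3.66% were higher and 3.24% lower at that level. The 9 serotonin and noradrenaline neuron genes had a median of 0.15, with 1 higher and 0 lower at that level. Their medians on the KO arrays, 0.16 to 0.27, lay above those on the control arrays, -0.19 to 0.09. Array medians of the genotypes were fully apart in other lists too. The Toll-like receptor list stood at 0.06 to 0.16 on KO and -0.01 to 0.01 on control arrays. The pan-neuronal list stood at -0.08 to -0.04 on KO and 0.01 to 0.05 on control arrays. The astrocyte list stood at -0.065 to -0.014 on KO and -0.003 to 0.040 on control arrays. The median of the serotonin and noradrenaline list was 0.14 to 0.18 without KO sham midbrain 2, 4 or both. In CCI midbrain it was 0.04 and in sham medulla -0.13. Among these genes Slc6a2, the noradrenaline transporter, was separated in normalized values only (0.29, adjusted p = 0.516). The 8 opioid genes had 0 members at that level in either direction and a median of 0.03, which was -0.01 without KO sham midbrain 2 and likewise without KO sham midbrain 4.

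The 17 genes of GABA and glycine transmission had the lowest median of the 30 lists, -0.11, with 3 lower and 0 higher at an unadjusted p of 0.05, beside 3.24% lower and 3.66% higher over all genes, and 0 that passed. Gad1, a GABA-synthesising enzyme, differed by -0.18 (adjusted p = 0.56). Gabra3, the alpha-3 subunit of the GABA-A receptor, read 55.1, 24.6, 41.3 and 41.4 units in KO sham midbrain, against 81.7, 61.7, 66 and 55.6 units in control sham midbrain. The ranges almost touched, and the difference was -0.56 (adjusted p = 0.492). Glra1, the alpha-1 subunit of the glycine receptor, differed by -0.60 (0.497). The list's median was -0.03 without KO sham midbrain 2 and 4, 0.00 in CCI midbrain and 0.01 in sham medulla.

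No cell type marker passed. The 22 pan-neuronal genes had a median difference of -0.06, with summed levels of 33349 to 38498 units in KO sham midbrain and 37905 to 40260 in control sham midbrain, and 1 (Snap25, -0.20) was lower at an unadjusted p of 0.05, where 3.24% of all genes were lower and 3.66% higher. Medians were 0.00 for astrocyte, 0.01 for oligodendrocyte and 0.07 for endothelial and mural genes, and the last was -0.01 without KO sham midbrain 4. Of the 21 endothelial and mural genes 2 were higher (Flt1, 0.32, and Cldn5, 0.27) and 2 lower (Slco1a4, -0.21, and the separated Pecam1, -0.60) at that level. The 13 choroid plexus and ependymal genes had a median of 0.16, with 12 of 13 positive, beside 52.9% of all genes. The 1 negative gene was separated below the controls, and 5 of the 13 were under 20 units in control sham midbrain. The list's median was 0.03 without KO sham midbrain 2 and 4, -0.13 in CCI midbrain and 0.62 in sham medulla. At an unadjusted p of 0.05, 3 of the 13 were higher (Ttr, Aqp1, 0.32, and Cldn1, 0.30) and 0 lower. Ttr, the transthyretin of choroid plexus, read 1205, 1138, 2219 and 5211 units in KO sham midbrain, against 633, 710, 2040 and 181 units in control sham midbrain. It varied manyfold within each genotype and the difference of 1.64 did not pass (adjusted p = 0.554). Hindbrain Hox genes, of which 10 of 20 were under 20 units in control sham midbrain, had a median of 0.11. Their median was -0.13 in CCI midbrain and 0.04 in sham medulla. The part of dissection and of cell composition in any difference was not tested.

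**Figure D5:**
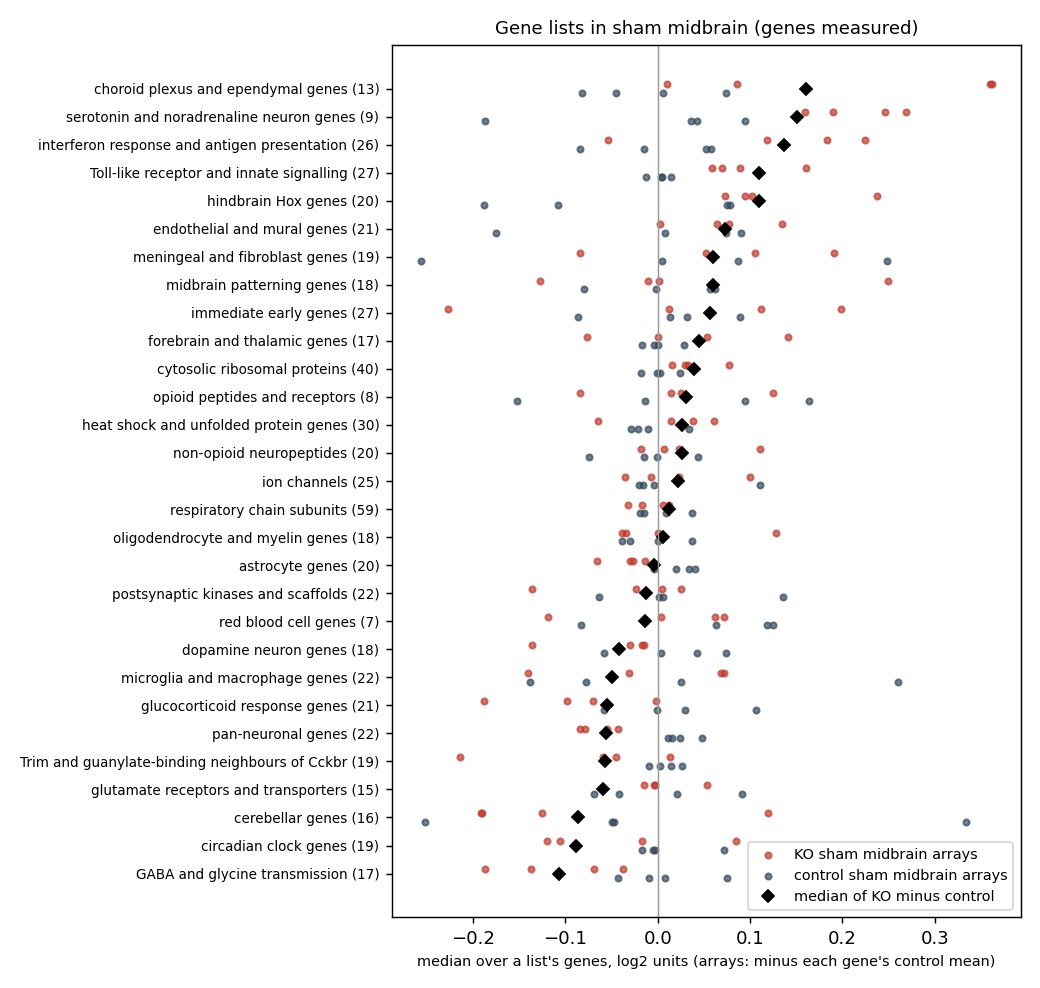
Median over the genes of each list on every sham midbrain array, relative to each gene's control mean (red, KO; blue, control), and the median of the difference KO minus control (black), in log2 units; the number of measured genes is in brackets and the 4-gene cholecystokinin list is not drawn. List medians lie between -0.11 and 0.16.

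Of 19 clock genes 2 were lower and 0 higher at an unadjusted p of 0.05, beside 3.24% lower and 3.66% higher over all genes. They were the paired repressors Nr1d1 (-0.21) and Nr1d2 (-0.28). Nr1d2 read 1264, 1032, 1192 and 1168 units in KO sham midbrain, against 1378, 1432, 1458 and 1434 units in control sham midbrain. The groups did not overlap (adjusted p = 0.383). The difference was -0.01 in CCI midbrain. Cyp26a1, which degrades retinoic acid, read 51.7, 40.9, 59.3 and 41.2 units in KO sham midbrain, against 23.0, 25.8, 25.2 and 22.1 units in control sham midbrain. Every KO array was well above every control, with a difference of 0.67 (SE 0.12, adjusted p = 0.213), beside 0.25 in CCI midbrain and 0.28 in sham medulla.

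The last comparisons ask whether the genotype difference depended on the operation or the region. For genotype by operation (sham minus CCI difference in midbrain) 0 of 22626 probe sets passed (0%) in limma, with 1239 at an unadjusted p of 0.05 (5.48%) and a lowest adjusted p of 0.822. For genotype by region in sham mice (midbrain minus medulla difference) 0 passed (0%), with 1022 at that level (4.52%) and a lowest adjusted p of 0.952. Cckbr differed by -3.01 in CCI midbrain and by -2.56 in sham medulla, and its interactions were 0.20 (adjusted p = 0.887) and -0.26 (0.958). For Myo7a the differences were -1.27 in CCI midbrain, where it passed (adjusted p = 0.0455), and -1.09 in sham medulla (0.19). For Iqgap1 they were 0.67 (0.68) in CCI midbrain and 1.18 (0.0093) in sham medulla. The separate comparisons called 2 probe sets in CCI midbrain (0.00884%, with 4.95% at an unadjusted p of 0.05) and 3 in sham medulla (0.0133%, with 3.82%). An interaction that missed the threshold does not show that the differences were equal.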

How the data were processed

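Biotinylated cRNA made from 4 ug of TRIzol-extracted total RNA was hybridised to Affymetrix 430A 2.0 arrays, per the labels' protocols. The authors deposited 1 background-subtracted intensity per probe set and array on a linear scale; their software and scaling method are not given in the sources used here. Intensities under 0 were set to 0, 16 was added, log2 was taken and the 32 arrays were quantile-normalized. Of 22690 probe sets 64 controls were left out. Of the 22626 tested, 20380 carried 1 symbol (12393 genes), 691 several and 1555 none; 20351 matched the GRCm38.p6 annotation, used for chromosome and gene order. A mean per group was fitted to the 16 midbrain arrays, or to all 32 for the region comparison. The sham medulla comparison was fitted to the 16 medulla arrays. Fits used limma 3.58.1 in R 4.3.3 (lmFit, eBayes, both tails, Benjamini-Hochberg, threshold 0.05). The sham midbrain fit was tested on simulated data with independent normal noise, equal in all groups. That simulation held no arrays standing apart as KO sham midbrain 2 and 4 did. Title numbers did not pair sham midbrain samples of the genotypes. Lists used each gene's brightest probe set. Genes were named if past the threshold (up to 15 per direction), among the 10 smallest p per direction of separated genes with a group mean of at least 50 units, among 20 chosen from earlier results, among the 2 most different of a list, or past the threshold only without KO arrays 2 or 4. Members, lists and rules were chosen with earlier results of these data known.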

Additional observations from a re-analysis of the deposited data

Results flagged for a closer look

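In groups of 4 arrays, a value was marked where its gap to the nearest other array exceeded Dixon's 95% critical share of the group's range in normalized log2 values. The values printed are the deposited intensities, on which 6 of the 12 gaps were also past that share. Of 186 groups of named genes tested, 12 had such a value. In unselected groups chance gives about 1 in 20. Some genes were named because they passed only without KO sham midbrain 2 or 4, so that rate cannot be compared with this count. In KO sham midbrain 2, Cckbr (-1.49 units, others 9.17 to 12.9), Kcna2, a voltage-gated potassium channel (29.3, others 111 to 113), and Map2, a dendritic microtubule protein (57.0, others 258 to 296), were low. That array had the highest Actb 3′ to 5′ ratio, and its part in these values was not tested. In KO sham midbrain 4, Tlr4 was low (14.3, others 52.1 to 58.4). In KO sham midbrain 1, Hdgfl3 was high (539, others 402 to 469), with a gap of 0.852 of the range in normalized values and 0.513 in intensity. In KO sham midbrain 3, Alas2, the heme synthesis enzyme of red cells, was high (369, others 133 to 158). In control sham midbrain 1, Styxl1 (36.7, others 48.1 to 50.9) and Smarcc1 (204, others 253 to 264) were low. In control sham midbrain 2, Samhd1 (75.8, others 56.0 to 58.8) and Cx3cr1, a microglial chemokine receptor (230, others 120 to 133), were high. In control sham midbrain 3, Sdhd, a subunit of succinate dehydrogenase, was low (757, others 829 to 852). In control sham midbrain 4, Cyp26a1 was low (22.1, others 23.0 to 25.8), with a gap of 0.904 of the range in normalized values and 0.258 in intensity, where it lay close to its group. The gaps of Cckbr, Styxl1, Smarcc1 and Sdhd were also under the critical share in intensity.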

How the results depend on the processing

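The count of 3 called probe sets in sham midbrain stayed within 1.5 times under a pseudocount of 64, median centring, quantile normalization ahead of the floor or no further normalization, the filter on dim probe sets, a trended robust variance, array weights and 1 probe set per gene. It was 0 with a pseudocount of 1 (1829 at an unadjusted p of 0.05 in limma), 1 with the array code as a block, 1 with the title number as replicate block, 1 in a fit to the 8 arrays alone and 5 in a fit to all 32. It was 0 within the lower of the 2 array codes shared by both genotypes (885 at an unadjusted p of 0.05), where 2 KO arrays faced 1 control array and Cckbr too missed the threshold, and 0 within the higher (1115). Leaving out 1 array gave 1 to 4, and leaving out both KO sham midbrain 2 and 4 gave 11, for causes that were not tested. Residuals of equally numbered KO and control arrays correlated at -0.12, 0.10, 0.20 and -0.03. Both interactions had 0 calls in all settings except without KO sham midbrain 2 and 4, where each had 1, Gsc, whose intensities lay between -26.7 and 12.2 units in sham midbrain. The animal as a random replicate block left the region interaction at 0; animals were taken from consecutive array numbers, which for KO sham 3 and 4 pair midbrain and medulla differently from the titles. Of settings added after seeing the data, a pseudocount of 1 gave 0 calls in CCI midbrain (1093 at an unadjusted p of 0.05) and 64 gave 5 in sham medulla. The probe sets separated in sham and CCI midbrain numbered 77 to 89 without 1 of the KO arrays 2 and 4 and 345 without both, and those on chromosome 7 numbered 13 with no further normalization, 25 to 28 without 1 of the arrays and 45 without both. Of 2180 values of named genes under alternatives, 31 lost a call, 10 gained one and 0 reversed a called direction. Of 120 list medians 3 moved by more than the spread between arrays. Levels under about 20 units lie close to background, which limits what the dim probe sets of Cckbr, Tlr4 and Trim34a can show.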

Other observations

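Outside chromosome 7, 17 named probe sets were separated in the same direction in sham and CCI midbrain, and a few had large differences. They were picked after their values were seen, and none passed in sham midbrain. Cdca7, a cell cycle-associated chromatin protein, averaged 51.3 units in KO and 149 in control sham midbrain, with a difference of -1.23 (adjusted p = 0.37), -1.13 in CCI midbrain and -1.06 in sham medulla. Axin1, which holds beta-catenin in its degradation complex, read 140, 105, 305 and 167 units in KO sham midbrain, against 76.97, 64.9, 101.4 and 60.3 units in control sham midbrain, on 1 of 2 probe sets. Its difference was 1.03 (adjusted p = 0.37), with 0.76 in CCI midbrain and 1.35 in sham medulla, and the second probe set differed by -0.10. Mcm7, a subunit of the replicative helicase, differed by 0.62 (adjusted p = 0.37), 0.61 and 0.38 in the same order on 1 of 4 probe sets, while the other 3 differed by -0.11 to 0.14. Taar1, the trace amine receptor, differed by 0.49 in sham and 0.40 in CCI midbrain and by -0.25 in sham medulla. Slc18a3, the vesicular acetylcholine transporter, was dim and differed by -0.25, -0.23 and -0.27.

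A few probe sets, picked after their values were seen, were lowest on KO sham midbrain 2. That array also had the highest Actb 3′ to 5′ ratio (1.60), and the part of that ratio in these values was not tested. The median of the pan-neuronal list, relative to the control means, was -0.08 on KO sham midbrain 4 and also on KO sham midbrain 2. It was -0.05 on KO sham midbrain 1 and -0.04 on KO sham midbrain 3, against 0.01 to 0.05 on the control arrays. All KO arrays thus lay below all controls, and the list's median difference was -0.06 without KO sham midbrain 2 and 4. On KO sham midbrain 2 the astrocyte median was -0.07 and the oligodendrocyte median was 0.13. Syt1, the synaptic vesicle calcium sensor, read 174 units there and 710 to 960 on the other KO arrays, against 651 to 936 in control sham midbrain. On 1 of its 2 probe sets Fgfr3, an astrocyte growth factor receptor, read 26.6 units there and 79.1 to 110 on the other KO arrays, against 97.4 to 117 in control sham midbrain. The dimmer Nr1d2 probe set read 11.7 units there and 82.1 to 96.8 on the other KO arrays, against 108 to 120 in control sham midbrain.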
